A study of Homo sapiens with 2 samples.

Results

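Aminoacyl-tRNA synthetases and the scaffold proteins that hold them together were examined in HBEC-3KT cells, an immortalized line of human bronchial epithelium. Members were chosen by gene symbol, as 1 capital letter followed by ARS with an optional 1 or 2, plus EPRS, FARSA, FARSB, AIMP1, AIMP2 and EEF1E1. Described here are 39 of the 60619 genes in the deposited tables, and all 39 lay among the 13304 genes above the filter on low counts. They comprise 20 cytosolic synthetases, among which KARS and GARS also serve mitochondria, 16 mitochondrial synthetases and 3 scaffolds. The symbols are the older ones used in the files.

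Each synthetase joins one amino acid to its transfer RNA (tRNA), which carries it to the ribosome. Most amino acids have a cytosolic enzyme and a separate mitochondrial one, both encoded in the nucleus. Several cytosolic enzymes sit with AIMP1, AIMP2 and EEF1E1 in the multi-synthetase complex. Uncharged tRNA activates the kinase GCN2, which raises translation of the transcription factor ATF4, and many cytosolic synthetase genes are among those described as ATF4 targets.

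The study asked how CBS, cystathionine beta-synthase of the transsulfuration pathway, bears on Polycomb repressive complex 2. RNA was sequenced from cells transduced with pLenti6-hCBS or with the empty pLenti6 virus, with 4 to 8 hours of exposure, blasticidin selection at 10 µg/mL and 4 to 5 days of culture. Each group held 1 library, so no test between the conditions was possible and the spread between cultures is unknown. The libraries summed to 20785957 estimated counts for CBS and 20433062 for the empty vector. CBS itself had 3669 against 280 counts, a log2 fold of 3.59 (3.44 to 3.79), although reads are shared with its near-identical copy CBSL. Each log2 fold compares CBS with the empty vector once library sizes are scaled by TMM, with a prior count of 5. The range in parentheses is an exact 95% interval (Clopper-Pearson) for the ratio of 2 counts, which covers counting error only.

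All 8 markers of basal airway epithelium lay above the filter. Of these, 7 had a negative log2 fold, as had 6630 of all 13304 genes above the filter. KRT5, KRT14, KRT15, KRT17 and ITGB4 ran from -2.15 to -0.31, ITGA6 was at -0.10 and TP63 at -0.04 (-0.10 to 0.01). NGFR went the other way, at 0.93 (0.83 to 1.04). The sum of the 8 in CPM (counts scaled to library size) was 6899 in the CBS and 10715 in the empty-vector library. Of 2 general epithelial markers, EPCAM was at 0.54 and CDH1 at -0.24. Of 4 immune markers, PTPRC and CD3E had no count in either library, while CD68, found in lysosomes of macrophages but not of them alone, had 619 against 2259 counts (CBS first) and CD14 had 225 against 203. The summed level of the 4 was 39.6 against 123.6 CPM. Of 4 fibroblast markers, COL1A2 and DCN had no count, PDGFRA had 0 against 1, and COL1A1 had 132 against 270, a sum of 6.19 against 13.6 CPM. Of 3 endothelial markers, VWF and PECAM1 had at most 8 counts and CDH5 had 87 against 7, a sum of 4.17 against 0.75 CPM. In bulk RNA, a different level in each cell and a different share of cell states cannot be told apart. The part of these marker differences in the results below was not tested.

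Most members were modestly higher in the CBS library. A positive log2 fold was found for 32 of 39 members, beside 50.2% of all genes above the filter. On log2(TPM + 1) it was again 32, beside 59% of all genes, and with the trend of folds on transcript GC content and length removed it was 31, beside 50.1%. The counting interval lay above a ratio of 1 for 30 members, below it for 6 and held it for 3. With the GC and length trend removed these counts were 27, 6 and 6. Intervals above 1 were found for 31.6% of all genes above the filter and intervals below 1 for 31.1%. Among the 11040 genes with at least 100 counts in a library, which includes every member, the shares were 36% and 32%. The median log2 fold of the members was 0.28, while the median of all genes was 0.00 and the middle 50% of genes ran from -0.31 to 0.27. Sizes were small. No member reached 2-fold higher, as 1.41% of all genes did, or 2-fold lower, as 5.28% did. A level at least 1.5-fold higher was found for 4 members, MARS2, AIMP2, NARS2 and EARS2, which at 4 of 39 is near the 7.02% of all genes. No member was 1.5-fold lower, against 12.9% of all genes. The plot of member folds shows many small differences, mostly in one direction.

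**Figure D1:**
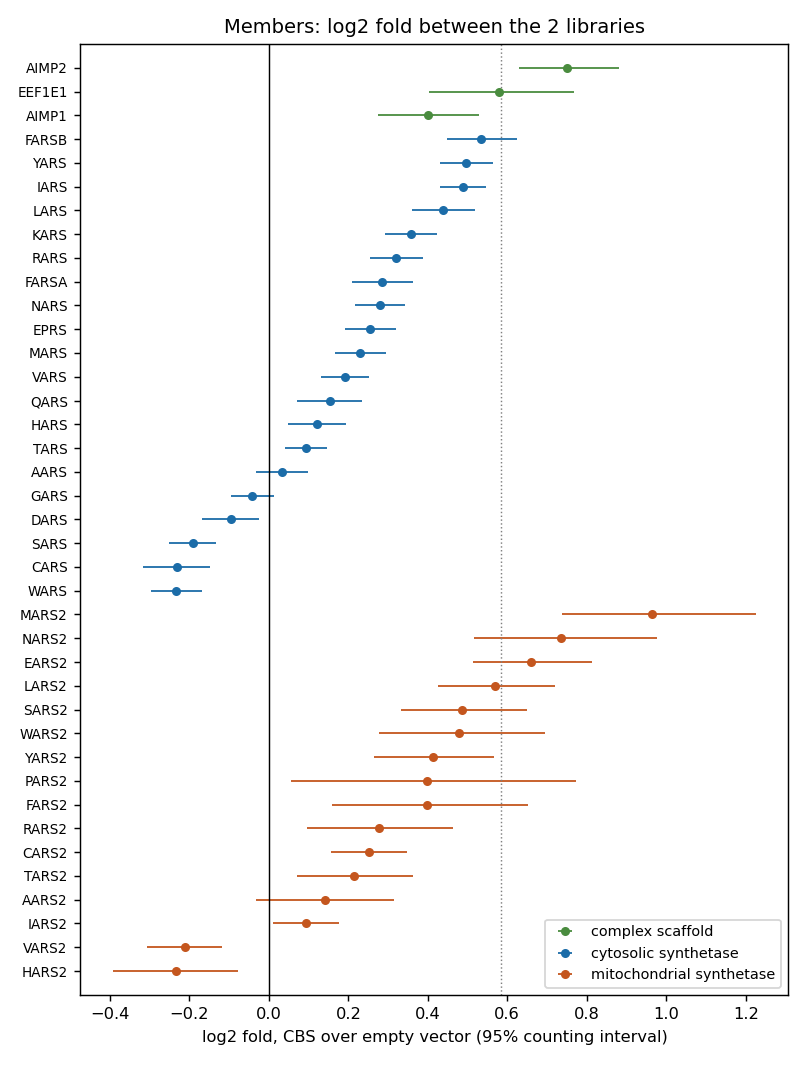
Log2 fold of each of the 39 members, CBS over empty vector, on the x axis, with its exact 95% counting interval as a bar and members grouped by role on the y axis. The dotted line marks 1.5-fold. Of 39 members, 30 have an interval wholly to the right of 0, and WARS, CARS, SARS, DARS, HARS2 and VARS2 have one wholly to the left.

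Levels per transcript length differed more between members than between libraries. In the authors' TPM, which scales each gene for transcript length and depth, the cytosolic synthetases ran from 35.0 to 200.1 in the empty-vector library with a median of 96.6, and from 55.1 to 203.4 with CBS with a median of 129.4. Mitochondrial synthetases ran from 3.33 to 60.0 TPM with a median of 16.7 in the empty-vector library, and from 4.82 to 85.02 with a median of 21.03 with CBS. GARS, which charges glycine tRNA in both compartments, had the highest TPM in both libraries and PARS2, the mitochondrial proline enzyme, the lowest. Together the 39 members held 3209 TPM with CBS and 2677 TPM with the empty vector, a ratio of 1.2. The ratio of summed TPM was 1.17 for cytosolic synthetases, 1.25 for mitochondrial synthetases and 1.61 for the scaffolds. On TMM-scaled CPM the same 3 ratios were 1.12, 1.18 and 1.5.

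**Figure D2:**
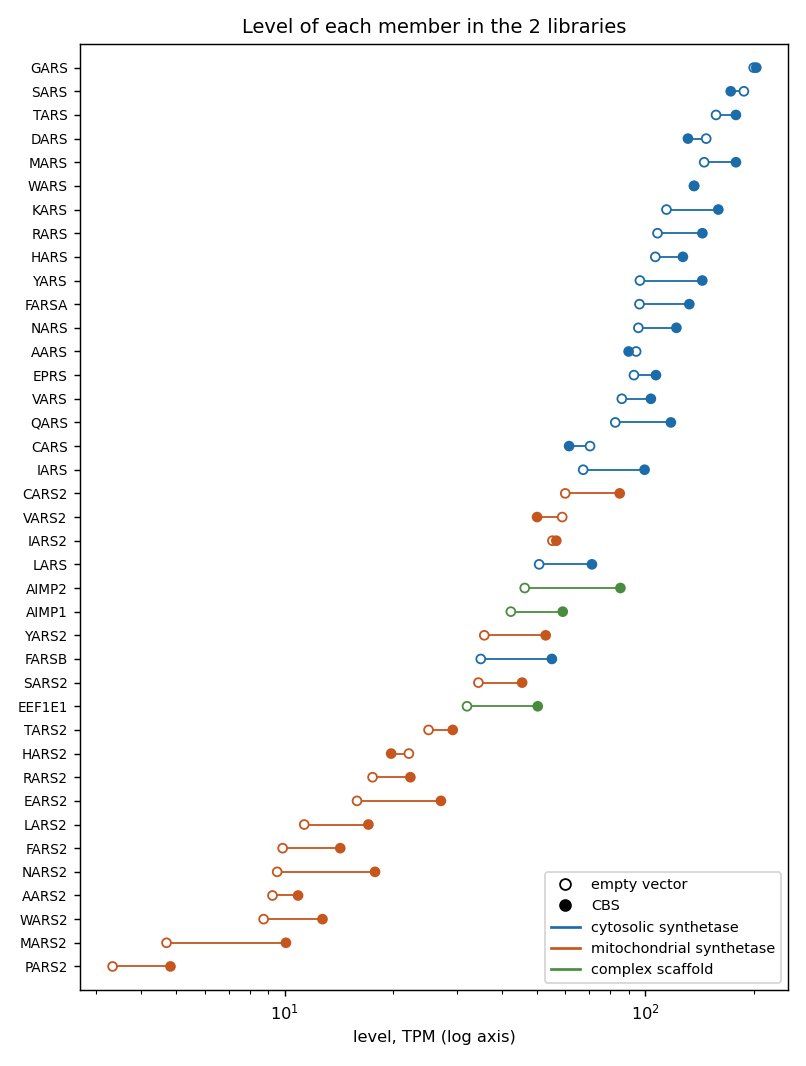
Level of each member in TPM on a logarithmic x axis, with open circles for the empty-vector library and filled circles for the CBS library. The filled circle lies to the right for most members, and mitochondrial synthetases fill the lower end of the scale, from 3.33 TPM for PARS2 in the empty-vector library.

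The 3 scaffolds were all higher with CBS. AIMP2, which binds several synthetases in the complex (chromosome 7, 6009245 to 6023834 in GRCh38), had 1425 counts against 789, CBS first here and below. Its log2 fold was 0.75 (0.63 to 0.88), the highest among members of the multi-synthetase complex. EEF1E1, also called AIMP3 (chromosome 6, 8073360 to 8102578), had 650 against 405 counts, a log2 fold of 0.58 (0.40 to 0.77). AIMP1, whose cleaved form is secreted as a cytokine (chromosome 4, 106315544 to 106349226), had 1210 against 856 counts, a log2 fold of 0.40 (0.27 to 0.53). Over the 11 genes of the complex the median log2 fold was 0.36, with 10 intervals above a ratio of 1 and 1, that of DARS, below. The 12 cytosolic synthetases outside the complex had a median of 0.11, with 7 intervals above, 3 below and 2 that held 1. Over all genes above the filter, 31.6% of intervals lay above 1 and 31.1% below. The complex list includes the 3 scaffolds, while the other list holds synthetases alone, so the sets are not alike. The difference between these lists was not tested.

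Within the complex, the synthetases for branched-chain amino acids leucine and isoleucine had the highest folds of the enzymes by counts, while on log2(TPM + 1) QARS at 0.51 stood between IARS at 0.56 and LARS at 0.48. IARS (chromosome 9, 92210207 to 92293756), which charges isoleucine tRNA, had 6074 counts against 4045, the most of any member in the CBS library. The log2 fold of IARS was 0.49 (0.43 to 0.55). LARS, the leucine enzyme and a leucine sensor upstream of mTORC1 (chromosome 5, 146113038 to 146182660), had 3246 against 2236 counts, a log2 fold of 0.44 (0.36 to 0.52). KARS for lysine stood at 0.36 (0.29 to 0.42), RARS for arginine at 0.32 (0.26 to 0.39), EPRS, which charges both glutamate and proline tRNA, at 0.25 (0.19 to 0.32), and MARS for methionine at 0.23 (0.17 to 0.29). QARS for glutamine was at 0.15 (0.07 to 0.24) by counts. DARS for aspartate had 3138 against 3133 counts and, after scaling, a log2 fold of -0.10 (-0.17 to -0.02), or -0.02 with plain library totals. With plain library totals the median of all genes above the filter was 0.07. MARS shares exonic sequence on the opposite strand with DDIT3, which had 99 against 500 counts, and whether the counting used strand is not given in the sources used here.

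Outside the complex, the phenylalanine and tyrosine enzymes were highest by counts. FARSB, the beta subunit of phenylalanyl-tRNA synthetase (chromosome 2, 222570536 to 222656337), had 2660 against 1714 counts and the highest log2 fold of the cytosolic synthetases, 0.53 (0.45 to 0.62). Its partner FARSA, the alpha subunit of the same enzyme, was at 0.29 (0.21 to 0.36) with 3248 against 2489 counts. The order of the 2 subunits turned with the GC and length trend removed, where FARSB was at 0.41 and FARSA at 0.46, and on that scale YARS at 0.57 and VARS at 0.44 also stood above FARSB. YARS, the tyrosine enzyme (chromosome 1, 32775237 to 32818153), had 4449 against 2945 counts, a log2 fold of 0.50 (0.43 to 0.56). NARS for asparagine was at 0.28 (0.22 to 0.34), VARS for valine at 0.19 (0.13 to 0.25), HARS for histidine at 0.12 (0.05 to 0.19) and TARS for threonine at 0.09 (0.04 to 0.15). With that trend removed the intervals of HARS, at 0.06 (-0.02 to 0.13), and TARS, at 0.0095 (-0.04 to 0.06), held 1.

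At the low end, 3 cytosolic enzymes outside the complex had intervals below a ratio of 1. WARS, the tryptophan enzyme, which interferon gamma induces (chromosome 14, 100333788 to 100376805), had 3786 against 4158 counts, a log2 fold of -0.23 (-0.30 to -0.17). In TPM, WARS was at 136.7 with CBS and 136.8 with the empty vector. Its log2 fold on log2(TPM + 1) was -0.0014, where the median of all genes above the filter was 0.09. CARS, the cysteine enzyme (chromosome 11, 3000922 to 3057613), had 2149 against 2358 counts, a log2 fold of -0.23 (-0.32 to -0.15). SARS, the serine enzyme (chromosome 1, 109213918 to 109238169), had 4394 against 4688 counts, a log2 fold of -0.19 (-0.25 to -0.13). Cysteine is the end product of the pathway that CBS opens and serine is its substrate. A link of these values to the pathway was not tested. WARS had the same log2 fold as CARS by counts, and the mitochondrial enzymes CARS2 and SARS2 were at 0.25 and 0.49. The intervals of GARS and AARS held 1. GARS had 5616 against 5400 counts at -0.04 (-0.10 to 0.01), and AARS for alanine 3915 against 3573 counts at 0.03 (-0.03 to 0.10). The sign of both was opposite on log2(TPM + 1), where GARS was at 0.02 and AARS at -0.07, and GARS was also positive with plain library totals, at 0.03. The median of all genes above the filter was itself 0.09 on log2(TPM + 1) and 0.07 with plain library totals. With the GC and length trend removed the interval of GARS lay below 1, at -0.07 (-0.13 to -0.02).

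The 16 mitochondrial synthetases had a median log2 fold of 0.40, against 0.21 for the 20 cytosolic synthetases. Intervals lay above a ratio of 1 for 13 of the 16, below it for 2 and held it for 1. For the cytosolic enzymes the counts were 14, 4 and 2. Over all genes above the filter, 31.6% of intervals lay above 1 and 31.1% below. The highest of the 16 was MARS2, the mitochondrial methionine enzyme (chromosome 2, 197705369 to 197708387), with 435 against 206 counts. Its level was 10.1 against 4.70 TPM and its log2 fold 0.96 (0.74 to 1.23), a 1.95-fold higher level. NARS2 for asparagine (chromosome 11, 78435961 to 78574874) had 438 against 244 counts, a log2 fold of 0.73 (0.52 to 0.98). EARS2 for glutamate (chromosome 16, 23522014 to 23557731) had 985 against 581 counts, a log2 fold of 0.66 (0.51 to 0.81). LARS2 for leucine (chromosome 3, 45388506 to 45549421) had 982 against 617 counts, a log2 fold of 0.57 (0.43 to 0.72). These 4 genes hold fewer counts than most cytosolic members, and intervals of the mitochondrial genes were wider, with a median width of 0.32 against 0.13.

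The middle of the mitochondrial group lay between 0.09 and 0.49. SARS2 for serine was at 0.49 (0.33 to 0.65), WARS2 for tryptophan at 0.48 (0.28 to 0.69), YARS2 for tyrosine at 0.41 (0.27 to 0.57), FARS2 for phenylalanine at 0.40 (0.16 to 0.65) and PARS2 for proline at 0.40 (0.06 to 0.77). PARS2 had the fewest counts of all members, 161 against 113. RARS2 for arginine at 0.28 (0.10 to 0.46), CARS2 for cysteine at 0.25 (0.16 to 0.35) and TARS2 for threonine at 0.21 (0.07 to 0.36). AARS2 for alanine was at 0.14 (-0.03 to 0.32), an interval that held 1. IARS2 for isoleucine was at 0.09 (0.01 to 0.18). Once the trend on GC content and length was removed, IARS2 was at -0.0066 (-0.09 to 0.08) and RARS2 at 0.15 (-0.03 to 0.34), both intervals that held 1, and AARS2 was at 0.31 (0.14 to 0.49).

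HARS2 and VARS2 were the mitochondrial enzymes with lower values. HARS2, the histidine enzyme (chromosome 5, 140691426 to 140699291), had 631 against 694 counts, a log2 fold of -0.23 (-0.39 to -0.08). VARS2, the valine enzyme (chromosome 6, 30908242 to 30926459), had 1759 against 1904 counts, a log2 fold of -0.21 (-0.31 to -0.12). With the GC and length trend removed HARS2 stayed below 1 at -0.25 (-0.41 to -0.10), while VARS2 was at -0.03 with an interval that held 1 (-0.12 to 0.07). Both share exonic sequence on the same strand with a neighbour in GENCODE 29. For VARS2 this is GTF2H4, a subunit of a transcription factor, at -0.28 (-0.44 to -0.12), and for HARS2 it is ZMAT2, a splicing protein, at -0.10 (-0.21 to 0.02). SARS2 and EEF1E1 also overlap a coding neighbour on the same strand, so the split of reads for these 4 genes is less certain.

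The enzymes were also paired by amino acid. Pairs were formed where the 2 symbols differ only by a final 2, which gave 13 amino acids. Glutamate and proline, charged by EPRS in the cytosol, and phenylalanine, with the cytosolic subunits FARSA and FARSB, were left out. The mitochondrial enzyme had the higher log2 fold for 8 of the 13, and it did so for 8 on log2(TPM + 1) as well. The intervals of the 2 enzymes did not overlap for 8 amino acids. In 5 of these the mitochondrial enzyme was higher, namely methionine, tryptophan, serine, cysteine and asparagine. In the other 3, valine, isoleucine and histidine, the cytosolic enzyme was higher. HARS and HARS2 share exonic sequence on opposite strands, so without known use of strand the histidine pair is less certain. For tryptophan, serine and cysteine the cytosolic enzyme had an interval under 1 and the mitochondrial enzyme one above it. How often the intervals of other gene pairs fail to overlap was not computed. Over all genes above the filter, 31.6% of intervals lay above 1 and 31.1% below. The difference in log2 fold, mitochondrial minus cytosolic, ran from -0.40 for valine to 0.73 for methionine, with a median of 0.12.

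**Figure D3:**
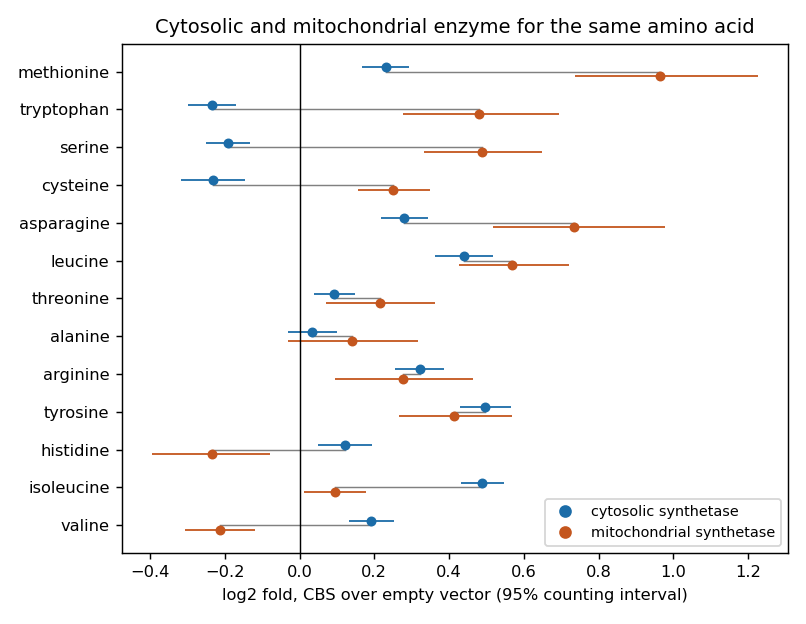
Log2 fold, CBS over empty vector, with its exact 95% counting interval for the cytosolic and the mitochondrial enzyme of 13 amino acids. The orange point lies to the right of the blue one for 8 amino acids, and the difference runs from -0.40 for valine to 0.73 for methionine.

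In TPM the cytosolic enzyme stood above its mitochondrial counterpart in both libraries for 12 of the 13 paired amino acids. The exception was cysteine. CARS was at 70.3 TPM and CARS2 at 60.0 in the empty-vector library, while with CBS the order was reversed, with CARS at 61.5 and CARS2 at 85.02. The log2 fold of CARS2 was larger on log2(TPM + 1), at 0.49, than by counts. The cytosolic to mitochondrial ratio in the empty-vector library ran from 1.17 for cysteine to 31.0 for methionine, and the latter was 17.7 with CBS.

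The 13 cytosolic synthetases described as ATF4 targets had a median log2 fold of 0.19, and the other 7 had one of 0.29. Among the 13, 8 intervals lay above a ratio of 1, 3 below and 2 held it, beside 31.6% above and 31.1% below over all genes above the filter. Among the other 7, FARSB, KARS, RARS, FARSA, QARS and HARS lay above and DARS below. These lists come from general knowledge and overlap in their folds, as the strip plot of lists shows, and their difference was not tested. By the structural class of the catalytic domain, 18 class I enzymes had a median of 0.30 and 17 class II enzymes one of 0.21, EPRS being left out because it carries both.

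The list of uncharged tRNA sensing and ATF4 held genes on both sides, with most of them lower. Intervals lay below a ratio of 1 for 14 of these 21 genes and above it for 6. The median log2 fold was -0.43, and 7 genes were at least 2-fold lower. Over all genes above the filter, 31.1% had intervals below 1, 31.6% above, and 5.28% were 2-fold lower. EIF2AK4, which encodes GCN2, had 2548 against 1604 counts, a log2 fold of 0.57 (0.48 to 0.66). The other sensing genes were higher as well by counts. IMPACT, which inhibits GCN2, was at 0.48 (0.30 to 0.67), EIF2S1, which encodes the substrate of GCN2, at 0.35 (0.27 to 0.42) and GCN1, the activator of GCN2, at 0.16 (0.09 to 0.22), though GCN1 was at -0.10 on log2(TPM + 1). The other 2 genes with intervals above 1 were PHGDH of serine synthesis at 0.27 (0.20 to 0.34) and the amino acid transporter SLC7A5 at 0.13 (0.12 to 0.15). ATF4 was at -0.39 (-0.42 to -0.35) with 10629 against 12978 counts. Its target ASNS, asparagine synthetase, had 1723 against 2171 counts and was at -0.43 (-0.52 to -0.34). Asparagine is an amino acid whose synthesis gene was lower while both genes that charge its tRNA, NARS and NARS2, were higher. Some stress genes downstream of ATF4 lay further down, with CHAC1, which degrades glutathione, at -2.85 (-3.08 to -2.68) and TRIB3, a pseudokinase, at -1.32 (-1.38 to -1.25). Not every gene of the list was far down. PSAT1 was at -0.11 (-0.19 to -0.03), SLC3A2 at -0.07 (-0.10 to -0.04) and SLC7A11 at 0.09 (-0.04 to 0.22), besides PHGDH and SLC7A5 above. The lowest member was at -0.23.

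**Figure D4:**
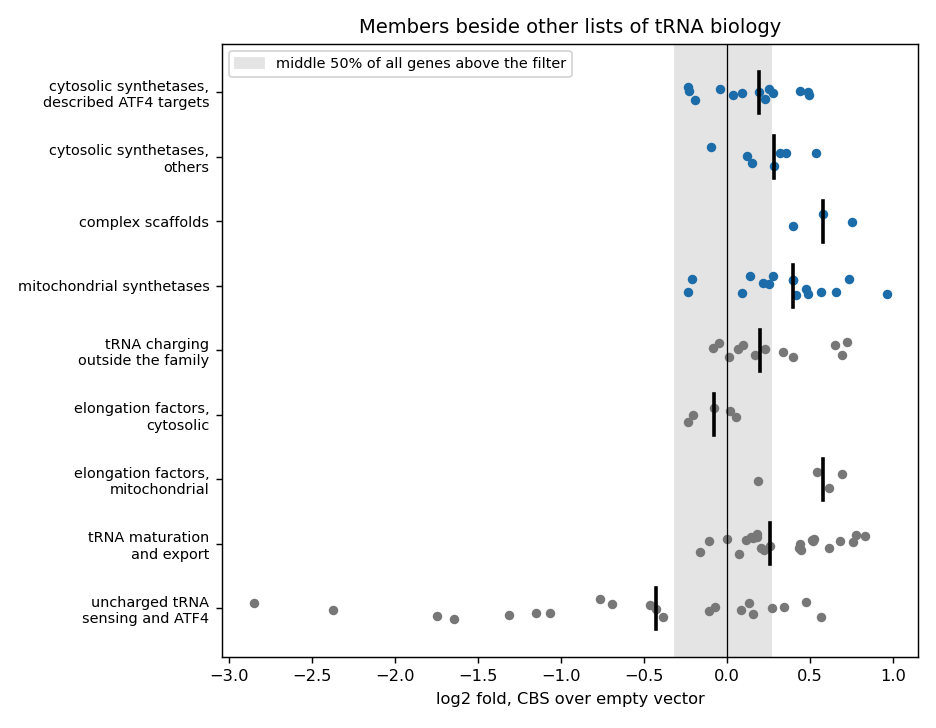
Log2 fold, CBS over empty vector, of each gene above the filter in 9 lists, with a black bar at each list's median and grey shading over the middle 50% of all genes (-0.31 to 0.27). Members are in blue and other genes of tRNA biology in grey. The list of mitochondrial elongation factors also holds GFM2, which acts in ribosome recycling. The list of uncharged tRNA sensing and ATF4 reaches to -2.85, while the lowest member lies at -0.23.

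Neighbouring steps of tRNA use were described in the same way, by compartment where they divide. Of the cytosolic elongation factors, which bring charged tRNA to the ribosome or move it along, 5 of 6 passed the filter. Their median log2 fold was -0.08, with 1 interval above a ratio of 1 and 3 below, and the median was 0.05 on log2(TPM + 1) and -0.01 with the GC and length trend removed. On log2(TPM + 1) the median of all genes above the filter was 0.09. EEF1G, a subunit of the exchange factor, had 28594 against 31418 counts and was at -0.23 (-0.26 to -0.21). All 4 genes of the mitochondrial list had intervals above 1, with a median of 0.58. They are the elongation factors TUFM, TSFM and GFM1, together with GFM2, which acts in ribosome recycling. TSFM, the mitochondrial exchange factor, had 608 against 349 counts and was at 0.70 (0.51 to 0.90). Genes of tRNA maturation and export had a median of 0.26, with 15 of 23 intervals above a ratio of 1 and none below. Beside these lists, intervals of all genes above the filter lay above 1 for 31.6% and below it for 31.1%. The highest of the 23 was RPP40, a subunit of RNase P, which trims the leading end of the tRNA, at 0.84 (0.51 to 1.23) with 195 against 100 counts. Other subunits spread widely, with POP1 at 0.76 (0.51 to 1.04), POP5 at 0.07 (-0.15 to 0.29) and RPP21 at -0.16 (-0.35 to 0.03). XPOT, which exports tRNA from the nucleus, was at -0.0021 (-0.07 to 0.07). ELAC2, which trims the trailing end, was at 0.62 (0.52 to 0.71) with 2343 against 1426 counts.

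Enzymes of tRNA charging outside the family had a median of 0.20, with 6 of 12 intervals above a ratio of 1, none below and 6 that held it. Shares over all genes above the filter were 31.6% above and 31.1% below. Of the proofreading factors, DTD2, which removes wrongly attached amino acids, and AARSD1, which edits mischarged alanine tRNA, were at 0.72 (0.44 to 1.05) and 0.65 (0.46 to 0.85), and DTD1, another deacylase, was at 0.07 (-0.05 to 0.19). Mitochondria have no glutamine synthetase of their own and convert glutamate on the tRNA with the GatCAB enzyme. Its subunits QRSL1, GATC and GATB were at 0.34 (0.15 to 0.54), 0.23 (0.10 to 0.36) and 0.17 (-0.01 to 0.35), and EARS2, which attaches the glutamate, was at 0.66. TARSL2, another cytosolic threonine enzyme that the symbol rule does not take, had 119 against 67 counts and was at 0.69 (0.29 to 1.18).

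Promoter sequences were read from RefSeq (GRCh38.p14) for 33 of the 39 members, matched by gene ID, over 250 bases before and 50 bases after each annotated start. TGATGNAA, the core of the C/EBP-ATF response element through which ATF4 binds, was searched on both strands. It was found in 3.62% of all 35116 promoters and, counted by gene, in 4.46% of 27305 genes. Of the 33 members, 8 held it, namely 7 of 16 cytosolic synthetases and 1 of 14 mitochondrial ones. The 7 cytosolic genes are all among the described ATF4 targets, of which 10 had a promoter to search. The matched windows are shown because they mark the members with a known kind of amino acid response site and because their log2 folds spread from -0.23 to 0.49. Each reads 5′ to 3′ on the gene's own strand with the match in capitals, and TTNCATCA is the same motif on the other strand.
CARS, chr11:3057408-3057435, minus strand: ggggcggcggTTGCATCAgattctagga
GARS, chr7:30594835-30594862, plus strand: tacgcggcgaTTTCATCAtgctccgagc
AARS, chr16:70289676-70289703, minus strand: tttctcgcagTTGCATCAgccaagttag
TARS, chr5:33440957-33440984, plus strand: cgcctttcgaTTGCATCAgctggtccag
MARS, chr12:57488054-57488081, plus strand: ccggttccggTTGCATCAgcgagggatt
NARS, chr18:57621805-57621832, minus strand: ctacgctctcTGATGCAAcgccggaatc
IARS, chr9:92293693-92293720, minus strand: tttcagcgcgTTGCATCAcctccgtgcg
YARS2, chr12:32756077-32756104, minus strand: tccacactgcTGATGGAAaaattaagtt

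The letters TTGCATCA, or their complement on the other strand, were present in AARS, CARS, IARS, MARS, NARS and TARS. The match began 2 bases before the annotated start in CARS, 4 before it in MARS, 13 before it in IARS and 33 before one of the starts of GARS. In TARS and NARS it began 3 and 15 bases after a start. It lay further off in AARS and YARS2, at 187 and 197 bases before a start. The 7 cytosolic genes with a match had a median log2 fold of 0.09 and the 9 searched without one had a median of 0.25. CARS at -0.23 and IARS at 0.49 carry the same 8 letters within a few bases of their starts, so a match did not go with one level of fold.

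Another motif, the E-box CACGTG to which MYC, MAX and related factors bind, was chosen after the folds were seen. It reads the same on both strands and was found in 7.26% of all promoters and in 8.78% of genes. Of the 33 members, 5 held it, AIMP2, CARS2, EARS2, IARS and MARS2. They are shown because they include 3 of the 4 members that were at least 1.5-fold higher. No match says only that the letters are not in this window.
MARS2, chr2:197705348-197705373, plus strand: gcgcctctcaCACGTGctgtcagaac
AIMP2, chr7:6009480-6009505, plus strand: gggcgctggcCACGTGcaggtaggag
EARS2, chr16:23557350-23557375, minus strand: gggagaagccCACGTGtgctattcca
IARS, chr9:92293868-92293893, minus strand: gttcgttttcCACGTGgaggcgcaaa
CARS2, chr13:110706503-110706528, minus strand: ctgggatgcaCACGTGcttcgctaac

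In MARS2 the E-box began 11 bases before the start, in EARS2 15 and in CARS2 3, while in AIMP2 it lay 75 bases before one of 2 annotated starts. The log2 folds of the 5 genes ran from 0.25 for CARS2 to 0.96 for MARS2, with a median of 0.66 against 0.28 for the 28 searched without it. Since the motif was picked with these folds in view, this is a description. IARS was the member that held both motifs, and the 250 bases before its start (chr9:92293698-92293947, minus strand) show their spacing in capitals.
IARS upstream: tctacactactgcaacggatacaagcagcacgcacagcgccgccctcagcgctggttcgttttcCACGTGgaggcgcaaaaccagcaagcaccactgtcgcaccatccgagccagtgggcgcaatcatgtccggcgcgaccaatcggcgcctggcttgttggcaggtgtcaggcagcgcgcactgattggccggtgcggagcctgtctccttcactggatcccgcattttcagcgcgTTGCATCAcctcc

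**Figure D5:**
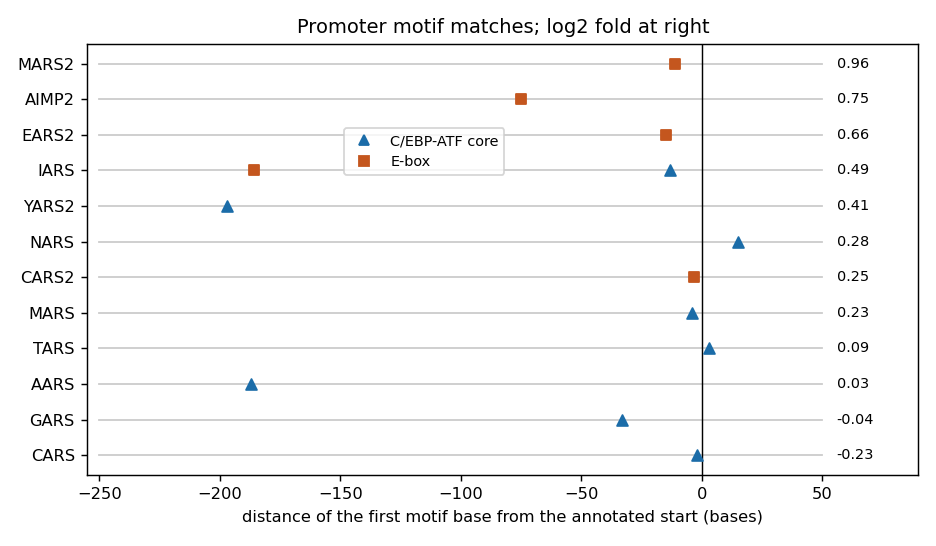
Distance in bases of the first base of each motif match from the annotated start, for the 12 members with a match, ordered by log2 fold, which is printed at the right. Triangles mark the C/EBP-ATF core and squares the E-box. The E-box was chosen after the folds were seen, so its place in this order is a description only. MARS2, AIMP2 and EARS2 at the top carry it, and CARS at -0.23 and GARS at -0.04 at the bottom carry the C/EBP-ATF core. Between them IARS at 0.49 carries both. YARS2 at 0.41 and NARS at 0.28, with the C/EBP-ATF core, lie above CARS2 at 0.25, with the E-box.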

How the data were processed

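RNA from 1 CBS and 1 empty-vector culture was sequenced on the DNBseq platform, per the labels' protocols. The submitters' processing notes name GRCh38, Trimmomatic 0.39, RSEM 1.3.2 and STAR 2.6.1d without saying what each did. Whether counting used strand, the read layout and the annotation release are not given in the sources used here. Per gene, the authors deposited expected counts, which are estimates, and 15.5% (CBS) and 15.8% (empty vector) of them were not whole and were rounded here. The authors also deposited TPM values, scaled for length and depth.

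The filter asked for 10 counts in 1 library and a mean CPM of 1 or more, which 13304 genes passed. TMM factors were taken from edgeR 4.0.16 (R 4.3.3) without fitting a model. The intervals treat reads as independent and do not cover the spread between cultures. Reads copied by PCR are not independent molecules, so the intervals may be too narrow even for counting error. A gene counted as past a fold threshold also had an interval that excluded a ratio of 1. The calculation was tested on simulated data. Alternatives were DESeq2 1.42.0 size factors, plain library totals, log2(TPM + 1), prior counts of 1 and 20, no filter, a filter of 100 counts, a threshold of 1.5-fold, other placings of KARS and GARS, and folds corrected for GC content and length (longest GENCODE 29 transcript, lowess span 0.3, statsmodels 0.14.6). AIMP1 and EEF1E1 were added to the cytosolic list as an alternative chosen after seeing the data. Scaffolds form a group of their own. All members were described, those with an absolute log2 fold of at least 0.5 or at either end of their group in full. The members, the lists and the motif TGATGNAA were chosen with earlier results of these data known. Coordinates of genes are those of the deposited table, and 35 of 39 equal GENCODE 29. One gene that the symbol rule takes is not reported here and entered no count of members.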

Additional observations from a re-analysis of the deposited data

How the results depend on the processing

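No paired analysis was possible because each group held 1 library. The median log2 fold of the cytosolic synthetases, 0.21, and of the mitochondrial synthetases, 0.40, stayed positive under every alternative run, and the counts of intervals above and below a ratio of 1 stayed within 1.5 times of 30 and 6. Intervals were not computed for TPM. The count of members at least 2-fold higher was 1 with plain library totals, which was MARS2, and 4 at a threshold of 1.5-fold, in place of 0. With folds corrected for GC content and length, IARS2 was at -0.0066 in place of 0.09, the one sign change of a member whose interval excluded 1. There 4 members, TARS, HARS, IARS2 and RARS2, no longer had an interval above 1 and VARS2 no longer had one below, while AARS2 was then above and GARS below. On that alternative 31 of 39 members were positive, beside 50.1% of all genes, and on log2(TPM + 1) 32 of 39, beside 59% of all genes and a median of all genes of 0.09. Depth limits PARS2, FARS2 and MARS2 most among the members, and the absence of replicate libraries limits every value.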

Other observations

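Counts and TPM differed for some members beyond a common shift, because the number of counts per TPM, which follows the transcript length assigned in the authors' quantification, differed between the libraries. Relative to the median of all genes above the filter, this quantity was lower with CBS by a log2 value of -0.24 for QARS, and 11.9% of all such genes had a larger shift in either direction. QARS was accordingly at 0.15 by counts and at 0.51 on log2(TPM + 1), with 82.7 TPM in the empty-vector library and 117.9 with CBS. The shift was 0.22 for AARS, 0.21 for SARS2, 0.19 for DARS, 0.18 for IARS2, 0.17 for EPRS, 0.14 for VARS2 and -0.13 for CARS2. The share of such genes with a larger shift ran from 13.3% for AARS to 25.2% for CARS2. For CARS2 the log2 fold was 0.25 by counts and 0.49 on log2(TPM + 1). Transcript-level values were not used here, so which transcripts differed was not tested.

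Exons of 14 members overlap a coding neighbour in GENCODE 29, 4 of them on the same strand and 12 on the opposite strand. SARS2 and MRPS12, a mitochondrial ribosomal protein gene on the opposite strand, had log2 folds of 0.49 and 0.46 (0.32 to 0.60). On its own strand SARS2 overlaps AC011455.2, which had 43 against 113 counts and was at -1.39 (-2.03 to -0.97). AIMP2 at 0.75 overlaps EIF2AK1, the heme-regulated kinase of the same stress pathway as GCN2, which had 3494 against 2851 counts and was at 0.19 (0.12 to 0.27).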
